A study of Oryza sativa Indica Group with 23 samples.

Results

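Calcium sensor genes of rice were described in roots of 4 genotypes with and without salt. The members were all genes whose RefSeq symbol or a synonym was CAM, CML, CPK or CDPK followed by a number. They comprised 53 genes: 3 calmodulins (CAM), 26 calmodulin-like genes (CML) and 24 calcium-dependent protein kinases (CPK). Of these, 46 had a single-gene probe set on the array (3 CAM, 23 CML and 20 CPK), out of 17905 genes with such a probe set. CML2, CML21, CML22, CPK11, CPK14, CPK25 and CPK28 had none and were not analysed here. Where a member had several such probe sets, the one with the highest mean over the 8 groups was used, without regard to its response to salt.

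A rise of calcium ions in the cytosol is an early signal of plant cells under salt, drought or cold, and it is read by proteins with EF-hand calcium-binding motifs. Calmodulins and calmodulin-like proteins have no enzyme activity of their own and act by binding other proteins once loaded with calcium. CPK proteins join a calmodulin-like domain to a protein kinase, so that 1 protein both senses calcium and phosphorylates targets. Several rice CPK genes, among them CPK12, CPK21 and CPK13 (older name OsCDPK7), are known to raise salt tolerance when overexpressed in rice plants.

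RNA of whole roots was hybridised to 23 Affymetrix rice arrays. Among the genotypes, IR29 is sensitive to salt and the landrace Pokkali tolerates it. FL478 is a tolerant recombinant inbred line with these as its parents, and IR63731 is tolerant too. All plants grew in sand with nutrient solution and were harvested on day 30. The 11 control arrays came from plants kept without added salt: 3 each of FL478, IR63731 and Pokkali and 2 of IR29. The 12 salt arrays, 3 per genotype, came from plants whose solution received sodium chloride and calcium chloride from day 22, in 2 steps over 3 days, to a conductivity of 7.4 dS per m. The calcium added with the salt and the sodium cannot be told apart in any comparison below. The labels call the arrays of a group biological replicates and do not say how many plants each holds.

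Values are log2 RMA levels, on which a difference of 1 is a doubling, and the number of arrays limits their precision. The median probe set lay at 4.38 on this scale, with 38 members above it and 8 at or below it. Of 12 root marker genes measured, 11 lay above that median, while of the green-tissue markers 3 of 5 and of the anther and seed markers 1 of 6 did. Some of these moved with salt in the mean of 4 genotypes: the green-tissue marker CAO at -2.0004 (adjusted p = 0.0101), the root phosphate transporter OsPT2 at -0.89 (0.000899) and WOX5 at 0.20 (0.0411). Their part in the members' salt calls was not tested. At probe sets marking a single genotype, 20 arrays lay near their labelled genotype (positions 0.84 to 1.04, where 1 is that genotype and 0 the others). FL478 salt replicate 2 had a position of 0.40 on the FL478 scale and 0.62 on the IR63731 scale. For IR29 control replicate 1 the IR29 position was 0.50, the IR63731 position 0.44. The third such array, FL478 control replicate 3, had 0.75 on its own scale and 0.23 on that of IR63731. These libraries stood apart from their labels, and the members' salt and genotype calls that use them are given with and without them. IR29 control roots had 2 arrays, so fits without these libraries rest on 1 array there, also in the mean of 4 genotypes. For comparisons with IR29 control roots alone, only the difference is then given. The salt arrays also had a higher difference between 3 prime and 5 prime control probe sets, a measure of RNA quality, with a mean of 0.69 against 0.60 in control arrays. Their mean level of evening over morning clock genes was higher as well, at -1.15 against -2.98. That level also differed by replicate number, from -1.11 to 1.82 in number 2 arrays and from -5.30 to -2.63 in number 3 arrays. Neither the 3 prime difference nor the clock level was tested as a source of the differences below, but each entered a fit as a covariate.

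Salt changed few of these genes. Averaged over the 4 genotypes, 4 of 46 members rose under salt, or 8.70%, beside 4.95% of all 57194 probe sets tested. CPK7 alone fell, or 2.17% of members beside 3.36%. In either direction this came to 10.9% against 8.31%, so the family stood close to the array as a whole. The members that passed were CAM1, CML20, CPK21 and CPK24, which were higher, and CPK7, which was lower (limma adjusted p under 0.05 over all probe sets). At an unadjusted p under 0.05 there were 11. The median log2 difference of the members was 0.03, against -0.01 over all probe sets, with 27 positive and 19 negative.

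**Figure D1:**
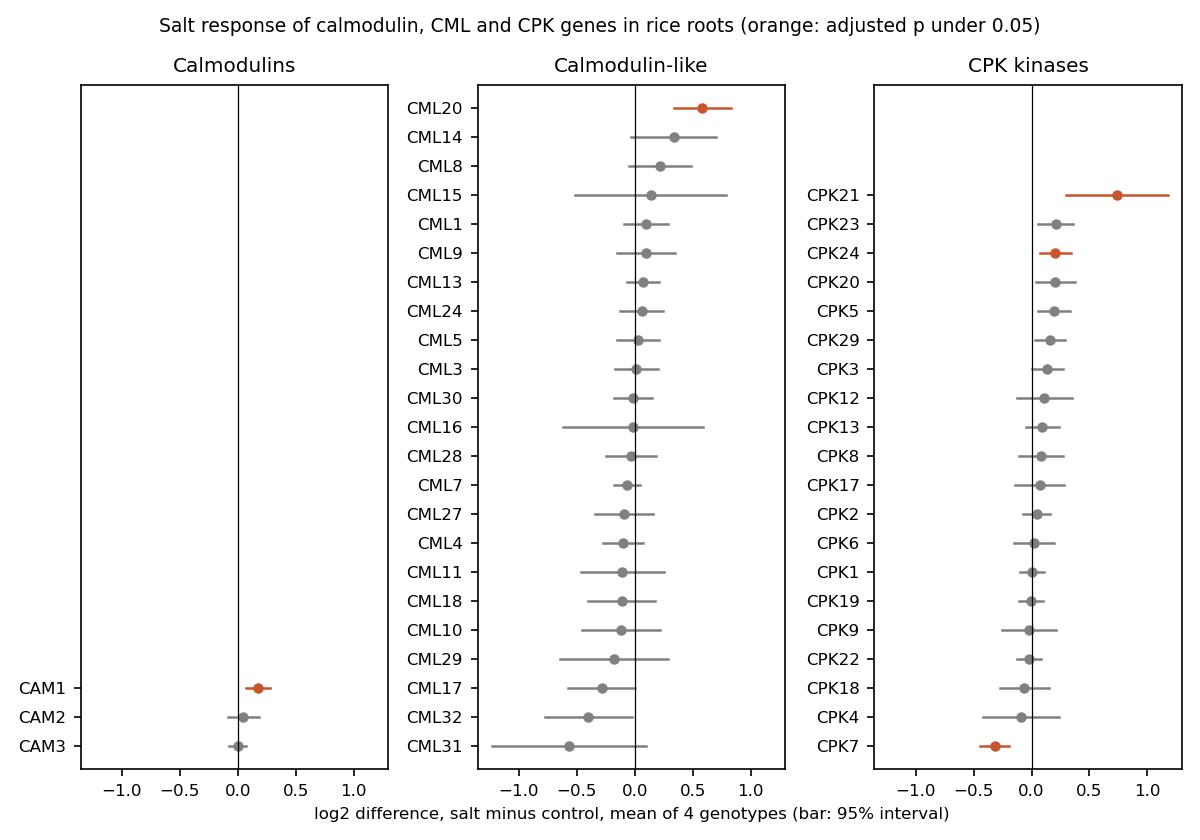
Log2 difference between salt and control for the 46 measured members, as the mean of 4 genotypes (x axis), by class. Points are limma estimates and bars 95% intervals; orange marks an adjusted p under 0.05. Most intervals cross 0, and the widest ones belong to calmodulin-like genes such as CML31, CML15 and CML16.

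Of the 3 calmodulins, CAM1 rose slightly. Its control arrays read 11.40, 11.55 and 11.52 in FL478, 11.79 and 11.39 in IR29, 11.82, 11.72 and 11.75 in IR63731, and 11.86, 11.76 and 11.91 in Pokkali. Its salt arrays read 11.63, 11.91 and 11.79 in FL478, 11.68, 11.82 and 11.68 in IR29, 11.86, 11.97 and 11.88 in IR63731, and 11.98, 12.002 and 11.89 in Pokkali. Every salt array lay above the mean of its own genotype's control arrays (12 of 12), and in FL478 and IR63731 the treatments did not overlap. The log2 difference was 0.17 (SE 0.05), or 1.13-fold, with a limma adjusted p of 0.0402. Leaving out 1 array ended the call for 15 of the 23 arrays (adjusted p up to 0.132). It was also lost with the 3 prime or the clock covariate (0.0862 and 0.0885), and it held without the 3 arrays that stood apart (0.0204). In whole roots, a lower level from fewer cells of a type and one from less RNA per cell cannot be told apart, here and below. The gene table gives CAM1 the names CAM1-1, CAM1-2 and CAM1-3, and transcripts from copies with nearly the same coding sequence cannot be told apart on this probe set.

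The other calmodulins showed no detectable change. CAM2 had group means from 11.21 (SD 0.03, n = 2) in IR29 control roots to 11.59 (SD 0.23, n = 3) in FL478 salt roots. Its log2 difference was 0.05 (SE 0.06, adjusted p = 0.732), and the salt arrays split evenly, 6 above and 6 below their control means. CAM3 was the steadiest of the 3: its group means stayed between 12.68 and 12.82, and its difference was 0.00 with a 95% interval from -0.073 to 0.073. A change of CAM3 larger than those bounds in the mean of the genotypes lies outside this interval.

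CML20 was the calmodulin-like gene that rose. Its control arrays read 5.11, 4.46 and 4.86 in FL478, 4.94 and 5.12 in IR29, 4.77, 4.58 and 4.55 in IR63731, and 4.98, 4.40 and 4.50 in Pokkali. Its salt arrays read 5.07, 5.19 and 5.49 in FL478, 5.35, 6.06 and 5.62 in IR29, 5.74, 5.53 and 5.79 in IR63731, and 4.35, 5.37 and 4.73 in Pokkali. The treatments were fully separate in IR29 and IR63731 and overlapped in FL478 and Pokkali, where 1 Pokkali salt array was the lowest of its genotype. The mean log2 difference was 0.58 (SE 0.12), or 1.5-fold, with an adjusted p of 0.00423. The control mean was exceeded by 11 of 12 salt arrays. By genotype it was 0.44 in FL478, 0.65 in IR29, 1.06 in IR63731 and 0.19 in Pokkali, and no difference between these passed (F test adjusted p = 1.00). The call held without any 1 array (adjusted p up to 0.0163) and without the 3 arrays that stood apart (0.0325).

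Of the other 22 calmodulin-like genes none passed in the mean of the 4 genotypes, and 1 of them had an unadjusted p under 0.05. That gene was CML32, at -0.40 (adjusted p = 0.206). The lowest estimate of the class belonged to CML31, at -0.57 (SE 0.32, adjusted p = 0.328). The next highest after CML20 were CML14 at 0.34 (adjusted p = 0.288) and CML8 at 0.22 (0.365).

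Among the kinases, CPK7 had the most regular response. Its control arrays read 10.07, 9.93 and 9.79 in FL478, 9.86 and 9.90 in IR29, 9.94, 9.76 and 9.87 in IR63731, and 9.92, 10.24 and 9.96 in Pokkali. Its salt arrays read 9.53, 9.54 and 9.34 in FL478, 9.68, 9.60 and 9.57 in IR29, 9.75, 9.49 and 9.69 in IR63731, and 9.81, 9.85 and 9.46 in Pokkali. In each of the 4 genotypes all salt arrays lay below all control arrays, which 1 of 46 members and 0.402% of all probe sets showed. CPK7 fell by 0.32 on the log2 scale (SE 0.06, adjusted p = 0.00245), so control levels were 1.25-fold the salt levels. By genotype the difference was -0.46 in FL478, -0.26 in IR29, -0.22 in IR63731 and -0.33 in Pokkali. The call held without any 1 array (adjusted p up to 0.0075), without the 3 arrays that stood apart (0.00885) and with the 3 prime covariate (0.0362).

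CPK21 had the largest estimate and one of the widest spreads. In IR63731 its control arrays read 3.32, 3.75 and 3.02 and its salt arrays 6.33, 4.53 and 4.88, with no overlap. In FL478 it read 3.80, 3.09 and 3.32 in control and 4.05, 4.14 and 3.71 under salt, and in IR29 3.45 and 3.15 against 4.02, 3.22 and 4.27. In Pokkali it read 4.76, 3.70 and 4.46 in control and 3.80, 5.02 and 3.99 under salt. Salt arrays were thus high in IR63731, overlapped their controls in the other three, and in Pokkali were centred on them. The mean log2 difference was 0.74 (SE 0.21), or 1.67-fold, at an adjusted p of 0.0363. The salt array exceeded its control mean in 9 of 12 cases. It was 1.88 in IR63731 (adjusted p = 0.102), 0.57 in FL478, 0.54 in IR29 and -0.04 in Pokkali, and the test of a difference between these effects did not pass (adjusted p = 1.00). The call of the mean was lost without any of 12 of the 23 arrays (adjusted p up to 0.0798), without the 3 arrays that stood apart (0.125) and with the 3 prime covariate (0.0929). It was also lost with limma's trend and robust options. Most CPK21 arrays lay below the median probe set.

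CPK24, a kinase with a known part in cold tolerance of rice, rose by 0.21 (SE 0.06), or 1.15-fold, with an adjusted p of 0.0469. Its control arrays read 9.48, 9.65 and 9.30 in FL478, 9.46 and 9.60 in IR29, 9.74, 9.68 and 9.44 in IR63731, and 9.84, 9.74 and 9.91 in Pokkali. Its salt arrays read 9.81, 9.74 and 9.92 in FL478, 9.73, 9.61 and 9.77 in IR29, 9.92, 9.60 and 9.94 in IR63731, and 9.96, 9.71 and 10.11 in Pokkali. The treatments were separate in FL478 and, by a narrow gap, in IR29, and overlapped in the other genotypes. Repeating the quantile normalization took the adjusted p of CPK24 above 0.05. The call was lost without any of 17 of the 23 arrays (adjusted p up to 0.124), without the 3 arrays that stood apart (0.188) and with the 3 prime covariate (0.236).

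CPK5 and CPK23 came next, with differences of 0.20 (adjusted p = 0.0739) and 0.21 (0.0848), and for each gene 11 of 12 salt arrays exceeded their control mean. CPK29 had 12 of 12 salt arrays above the control mean at a difference of 0.16 (adjusted p = 0.135). All CPK29 arrays lay below the median probe set, between 2.67 and 3.22, where RMA levels hold little signal. Of the kinases named above for salt tolerance of overexpressing rice, CPK21 rose as described. CPK12 had 0.11 (95% interval -0.125 to 0.346) and CPK13 0.09 (-0.045 to 0.235), and neither passed.

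**Figure D2:**
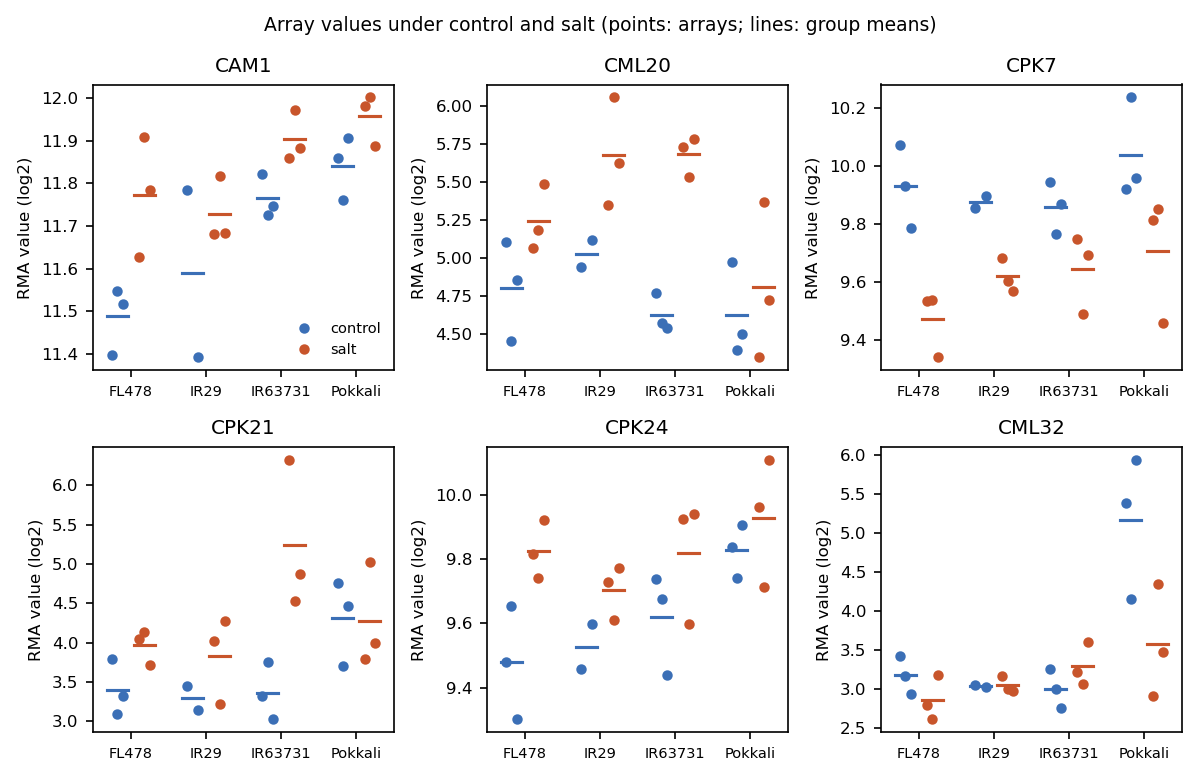
Log2 RMA level (y axis; each panel has its own range) of CAM1, CML20, CPK7, CPK21, CPK24 and CML32 in the 4 genotypes (x axis), control in blue and salt in orange. Points are arrays and lines group means. Salt points of CPK7 lie below control points in every genotype, CPK21 is highest in IR63731 salt roots, and CML32 is high in Pokkali control roots.

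Within a single genotype no member passed. The counts were 0 of 46 in FL478, IR29, IR63731 and Pokkali, where 0.96%, 0.343%, 0.0717% and 0.341% of all probe sets passed limma's test. At an unadjusted p under 0.05 there were 6 members in FL478, 2 in IR29, 8 in IR63731 and 4 in Pokkali. In FL478 and IR63731, deviations of same-numbered control and salt arrays from their group means all correlated above 0.1. For these genotypes a model that blocks on replicate number was also read. This model fitted the number as a factor shared by all 8 groups and did not pair arrays within a genotype. It passed CPK7 in FL478 (-0.46, adjusted p = 0.0281 with the block and 0.063 without it), beside 2.81% of all probe sets, and it passed no member in IR63731 (0.348%). Of the 6 FL478 arrays 2 are among those that stood apart, and without the 3 arrays and without the block CPK7 in FL478 had an adjusted p of 0.146, and with the 3 prime covariate 0.0834. The salt effects differed between genotypes for 0 of 46 members (F test in limma, 0.0035% of all probe sets), with 3 at an unadjusted p under 0.05, and the lowest adjusted p was 0.93, for CML32.

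CML32 was set apart by Pokkali. In Pokkali control roots it read 5.39, 4.16 and 5.94, and in Pokkali salt roots 2.91, 4.35 and 3.47. In the other genotypes and both treatments it lay between 2.61 and 3.60, below the median probe set, where RMA levels hold little signal. The Pokkali treatments overlapped through control replicate 2 and salt replicate 2. The difference of -1.59 (SE 0.35) had an adjusted p of 0.0586. With the replicate block it was 0.0322, beside 1.63% of all probe sets, although same-numbered Pokkali arrays did not all reach that correlation. It passed without Pokkali control replicate 2 (-2.09, adjusted p = 0.00429) and without Pokkali salt replicate 2 (-1.97, 0.0211), and in no other fit without 1 array (up to 0.312). Nor did it pass without the 3 arrays that stood apart (0.0927), with the 3 prime covariate (0.29) or with the clock covariate (0.0918). Over all fits without 1 array the difference ranged from -2.09 to -1.20.

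Without salt, CML32 was the member that differed between genotypes. The F test across the 4 control groups passed for 1 of 46 members, or 2.17% beside 6.68% of all probe sets, with an adjusted p of 0.000735 for CML32, and 10 members had an unadjusted p under 0.05. Its Pokkali level was 3.96-fold that of FL478 (log2 difference -1.99, SE 0.35, adjusted p = 0.00152), 4.37-fold that of IR29 (-2.13, 0.00247) and 4.46-fold that of IR63731 (-2.16, 0.000653). FL478, which descends from Pokkali, thus had the low level of its other parent, IR29. Without the 3 arrays that stood apart the CML32 differences to FL478 and IR63731 passed (0.0166 and 0.00182). The difference to IR29 was then -2.14, with 1 IR29 control array left. Fitted with only the arrays compared, the differences to FL478 and IR29 did not pass (0.0513 and 0.0925). Under salt no genotype difference of CML32 passed (F test adjusted p = 0.599). For this gene and all below, a sequence difference under the probes and a difference in RNA between genotypes cannot be told apart.

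Pair by pair, the members that passed in control roots all differed from Pokkali. There were 3 for FL478 against Pokkali (4.36% of all probe sets passed), 2 for IR29 (4.15%) and 2 for IR63731 (3.6%), CML32 included each time. Pairs without Pokkali passed 0 members in limma, beside 1.38% of probe sets for FL478 and IR29, 2.44% for FL478 and IR63731 and 0.893% for IR29 and IR63731, with 5, 7 and 4 members at an unadjusted p under 0.05. CML5 was lower in FL478 (8.07, 8.23 and 8.23) than in Pokkali (8.83, 8.81 and 9.07), with no overlap and a log2 difference of -0.73 (SE 0.17, adjusted p = 0.0144). CAM1 was lower in FL478 than in Pokkali by the arrays given above, at -0.35 (SE 0.10, adjusted p = 0.0421), again with no overlap. The CML5 call was lost without any of 2 of the 23 arrays (up to 0.0814), and the CAM1 call without any of 13 (up to 0.164) and with only the arrays compared (0.119). Both held without the 3 arrays that stood apart (0.0324 and 0.0333). Under salt, CML5 and CAM1 did not pass for the same pair (adjusted p = 0.31 and 0.46). Whether their FL478 to Pokkali difference changed with salt did not reach the threshold in the test of salt effects across genotypes.

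CPK6 and CML9 passed in both treatments, which are separate sets of arrays but share 1 estimate of the spread over all 23 arrays. CPK6 was higher in IR29 (4.10 and 4.23 in control) than in Pokkali (3.33, 3.53 and 3.48), at 0.72 (SE 0.18, adjusted p = 0.024). Under salt IR29 read 4.07, 3.87 and 4.14 and Pokkali 3.66, 3.16 and 3.62, a difference of 0.55 (adjusted p = 0.0472), and the groups overlapped in neither treatment. All these arrays lay below the median probe set. Without the 3 arrays that stood apart the salt difference did not pass (0.0564). The control difference was then 0.79, with 1 IR29 control array left. The salt call was also lost with the 3 prime covariate (0.058), with quantile normalization repeated and with only the arrays compared. Leaving out 1 array ended the control call for 4 of the 23 arrays (up to 0.224) and the salt call for 16 (up to 0.241). A second CPK6 probe set with a lower mean was not used.

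CML9 was lower in IR63731 than in Pokkali. In control roots it read 7.07, 7.08 and 6.42 in IR63731 and 7.60, 8.01 and 7.73 in Pokkali, a difference of -0.92 (SE 0.23, adjusted p = 0.0292). In salt roots it read 6.74, 7.21 and 6.62 against 8.07, 7.86 and 7.87, a difference of -1.08 (SE 0.23, adjusted p = 0.00897). The groups did not overlap in either treatment, and both calls held without the 3 arrays that stood apart (0.0278 and 0.00886). Leaving out 1 array ended the control call for 3 of the 23 arrays (up to 0.193) and the salt call for 2 (up to 0.0629). With only the arrays compared the control call was lost (0.0517) and the salt call held. In the gene table CML9 lies directly beside CAM2, with 0 genes between them.

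Under salt the F test across genotypes passed for 5 of 46 members, or 10.9% beside 8.09% of all probe sets, and 18 had an unadjusted p under 0.05. The 5 were CPK23, CML9, CML20, CML11 and CML24, with adjusted p from 0.00381 for CPK23 to 0.0485 for CML24. The CPK23 call held without any 1 array (up to 0.0291) but not with only the arrays compared (0.0654), and the CML9 call was lost without any of 3 (up to 0.0738). The others were less stable: leaving out 1 array ended the call for 17 of 23 arrays in CML11 (up to 0.252), 16 in CML20 (up to 0.199) and 16 in CML24 (up to 0.244). With the 3 prime covariate CML11 (0.0711) and CML24 (0.0505) did not pass. With only the arrays compared CML11, CML20 and CML24 did not pass. The CML11 call was also lost with array weights and with limma's trend and robust options. By pairs, IR29 against Pokkali passed 3 members (6.34% of all probe sets passed), IR63731 against Pokkali 2 (3.3%) and FL478 against Pokkali 1 (3.05%). FL478 against IR29 passed 2 (3.74%), FL478 against IR63731 1 (1.3%) and IR29 against IR63731 1 (2.94%), the last being CML27 at -0.92 (SE 0.23, adjusted p = 0.0322). That CML27 call was lost without any of 4 of the 23 arrays (up to 0.16).

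CPK23, known in rice seeds as a kinase acting on sucrose synthase, was highest in FL478. In control roots its mean was 9.78 in FL478, 9.37 in IR29, 9.43 in IR63731 and 9.55 in Pokkali, and no pair passed. Its salt arrays read 10.27, 9.91 and 10.43 in FL478, 9.41, 9.76 and 9.10 in IR29, 9.46, 9.76 and 9.44 in IR63731, and 9.74, 9.85 and 9.77 in Pokkali. FL478 lay above all arrays of the others, by 0.78 over IR29 (SE 0.14, adjusted p = 0.0023) and 0.65 over IR63731 (0.023). Over Pokkali the difference was 0.42, which did not pass (0.147). The lowest FL478 salt value belonged to replicate 2, 1 of the 3 arrays that stood apart. Without those 3 the F test had an adjusted p of 0.00246 and the pairs with IR29 and IR63731 0.00122 and 0.00501. With only the arrays compared neither pair passed (0.184 and 0.302). The IR63731 pair was also lost without any of 4 of the 23 arrays (up to 0.179), while the IR29 pair held without any 1 array (up to 0.0198).

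CML11 was also highest in FL478 under salt, at 8.30, 7.60 and 9.13 against 6.86, 6.57 and 7.46 in Pokkali. The difference was 1.38 (SE 0.33, adjusted p = 0.0244), with no overlap between these groups, and without the 3 arrays that stood apart it was 1.75 (0.00548). The pair was lost without any of 4 of the 23 arrays (up to 0.18) and with only the arrays compared (0.23). The low FL478 array was again replicate 2. CML11 in IR29 and IR63731 salt roots lay between 6.93 and 7.74. Its control mean was also highest in FL478, at 8.24 against 7.35 in IR29, 7.48 in IR63731 and 7.42 in Pokkali, and no control pair passed.

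CML24 was highest in IR29 under salt, at 4.07, 3.74 and 4.27, against 3.41, 3.41 and 3.31 in FL478 and 2.95, 3.75 and 3.43 in Pokkali. The difference was -0.65 for FL478 minus IR29 (SE 0.17, adjusted p = 0.0412) and 0.65 for IR29 minus Pokkali (0.027), and IR29 overlapped Pokkali through 1 array each. These calls were lost without any of 12 of the 23 arrays (up to 0.206) and of 4 (up to 0.177). With only the arrays compared neither passed (0.133 and 0.224). All these CML24 values lay below the median probe set. Its control mean was also highest in IR29, at 3.90 against 3.55 in FL478, 3.40 in IR63731 and 3.34 in Pokkali, and no control pair passed. CML20 was lowest in Pokkali salt roots, by 0.86 against IR29 (adjusted p = 0.0268) and 0.87 against IR63731 (0.0401). The first of these was lost without any of 4 of the 23 arrays (up to 0.17) and the second without any of 10 (up to 0.2635). With only the arrays compared neither passed (0.197 and 0.1625). Without the 3 arrays that stood apart, the F tests of CML24 and CML20 no longer passed (0.0852 and 0.0844), nor did FL478 minus IR29 for CML24 (0.0952) or IR63731 against Pokkali for CML20 (0.0737).

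**Figure D3:**
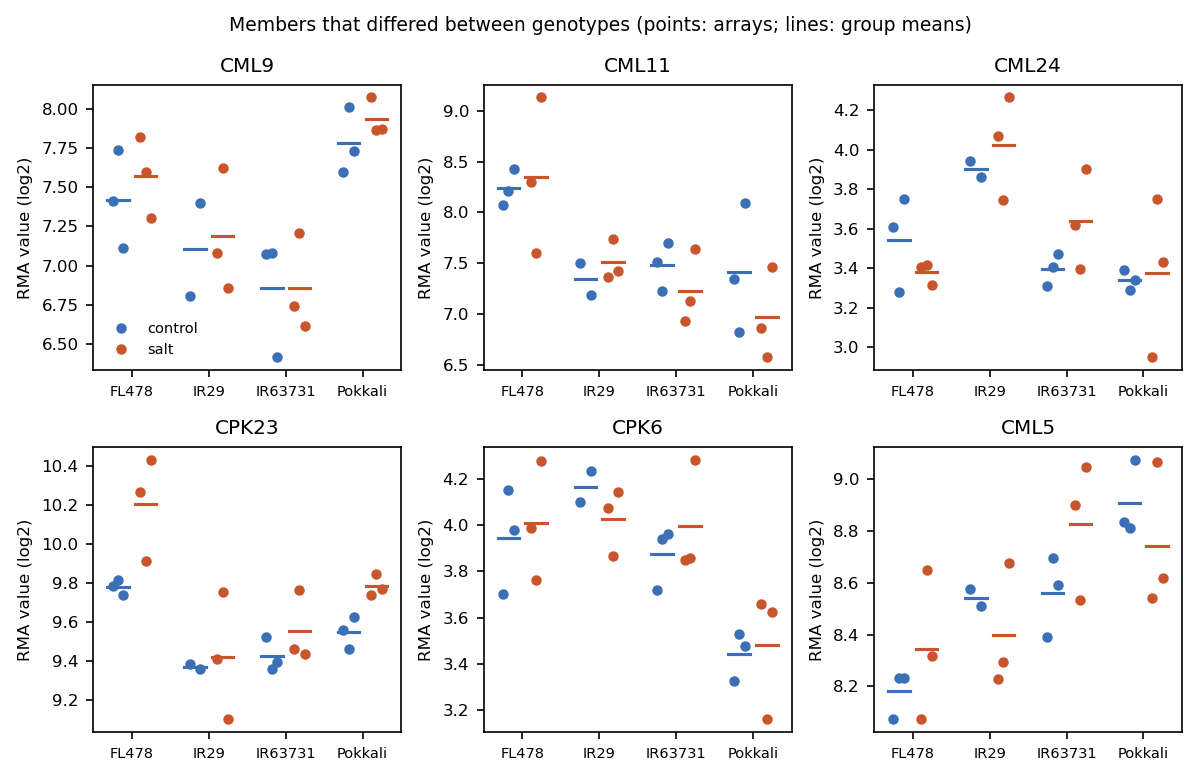
Log2 RMA level (y axis; each panel has its own range) of CML9, CML11, CML24, CPK23, CPK6 and CML5 by genotype (x axis), control in blue and salt in orange; points are arrays and lines group means. CML9 is higher in Pokkali than in IR63731 and CPK6 lower in Pokkali than in IR29 in both treatments. CPK23 is highest in FL478 in control and in salt roots.

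Calmodulin-like genes had a wider median spread between replicate arrays than the kinases, which was not tested. The median SD within groups was 0.306 over 23 CML genes, 0.167 over 20 CPK genes and 0.108 over 3 CAM genes. Of the members, 12 were among the 10% of all probe sets with the highest SD: 10 CML genes, 2 CPK genes and 0 CAM genes. CML31 had an SD of 0.84, higher than 99.2% of probe sets, CML15 had 0.82 and CML16 had 0.76.

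CML31, CML15 and CML16 mostly deviated together within groups. In 9 of the 23 arrays all 3 genes lay above their group means and in 10 all lay below. In the other 4 their directions differed or, in IR29 salt replicate 1, CML16 lay practically at its group mean (10.1966 against 10.1968). FL478 control replicate 1 was high for all, at 10.16 for CML31, 9.43 for CML15 and 11.33 for CML16, where FL478 control replicate 2 read 8.80, 7.71 and 9.49. Pokkali salt replicate 2 was higher still, at 10.31, 10.03 and 12.06, against 8.11, 8.06 and 10.07 in Pokkali salt replicate 3. The arrays share RNA across genes, so these are not independent observations, and whether the probes of these genes share sequence was not tested.

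With this spread, sizeable salt differences did not pass. CML31 in FL478 differed by -1.73 (adjusted p = 0.209) and CML15 in IR63731 by 1.33 (0.579). CPK21 was high in some of the same arrays, with 4.76 in Pokkali control replicate 1 and 5.02 in Pokkali salt replicate 2.

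**Figure D4:**
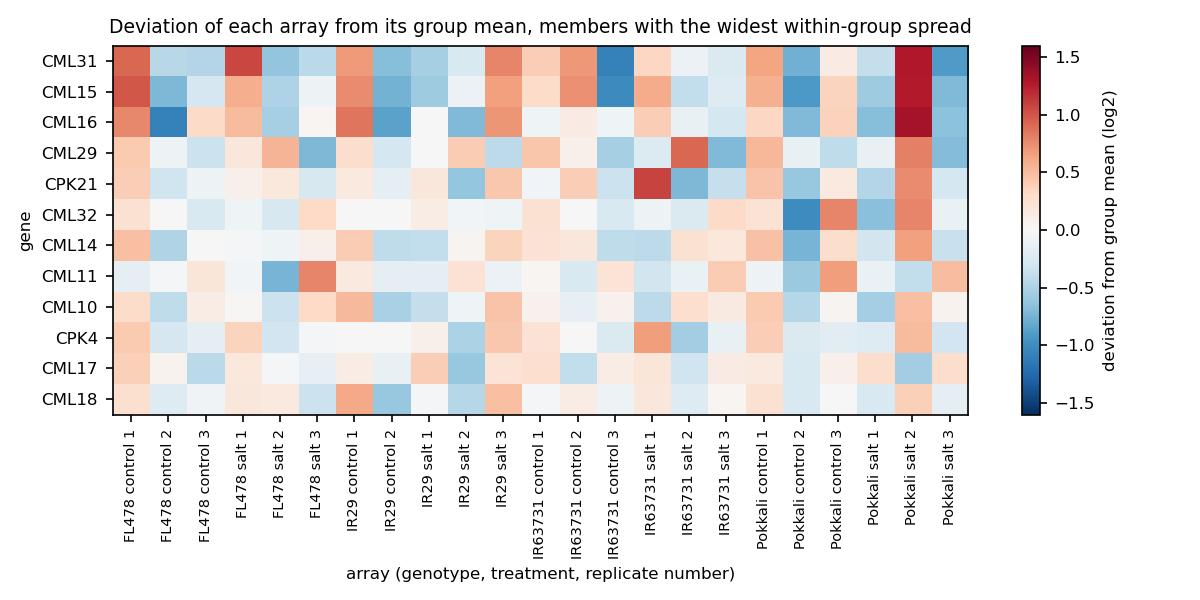
Deviation of each array (x axis: genotype, treatment and replicate number) from its group mean in log2 units (colour) for the 12 members among the 10% of probe sets with the highest within-group SD (y axis). CML31, CML15 and CML16 are red in the same arrays, among them FL478 control replicate 1 and Pokkali salt replicate 2, where the deviation of each was 0.76 or more.

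Some members also moved with the replicate number. Between numbers 3 and 2, across genotypes and treatments, 6 of 46 members passed, or 13.0% beside 6.15% of all probe sets, with 2 higher and 4 lower in number 3. CML8 was lower by 0.61 on the log2 scale (SE 0.08, adjusted p = 0.000161), CML29 by 0.86 (0.00803), CML9 by 0.48 (0.00817) and CPK17 by 0.34 (0.0403). CML11 was higher by 0.66 (0.0123) and CPK8 by 0.36 (0.00948). None of the 5 members that passed for salt in the mean of 4 genotypes was among these. The clock level given above also differed between numbers 3 and 2, and its part in these 6 calls was not tested. What a replicate number marks is not in the labels, and its part in the genotype differences of CML9 and CML11 was not tested beyond the fit with a replicate block, in which both passed under salt (0.000738 and 0.00267).

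Other genes of calcium signalling were set beside the members. CCAMK, a kinase that reads calcium signals in root symbiosis, rose by 0.68 (SE 0.09), or 1.61-fold, with an adjusted p of 0.000112. Its differences were 0.69 in FL478, 0.88 in IR29, 0.63 in IR63731 and 0.54 in Pokkali, and it passed with the 3 prime covariate (0.00115) and without any 1 array (up to 0.000708). Of the 4 measured genes in its list, CCAMK, CAMK1, CRK6 and CRK10, 2 rose, CCAMK and CRK6 (0.56, adjusted p = 0.0202). CRK6 and CRK10 were taken by name alone, and cysteine-rich receptor-like kinases share that name. Which family these genes belong to was not checked, so the rise of CRK6 is not read as that of a calcium signalling gene. Of 11 calcium channels and carriers, 2 rose and 0 fell: ACA8, a calcium pump, by 0.33 (adjusted p = 0.00677) and GLR3.1, a glutamate receptor-like channel, by 0.28 (0.00605). With the 3 prime covariate CRK6 (0.131), ACA8 (0.0762) and GLR3.1 (0.0658) did not pass, and without the 3 arrays that stood apart all 4 genes did, with CCAMK at 0.00116 and the others from 0.00114 to 0.0348.

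CBL proteins are calcium sensors that recruit CIPK kinases. Of 7 measured CBL genes 0 rose and 2 fell, among them CBL10 at -0.24 (adjusted p = 0.0177), and of 24 CIPK genes 3 rose and 4 fell, led by CIPK17 at -0.85 (0.00306). The CBL10 call was lost with the 3 prime covariate (0.0762), with the clock covariate (0.0747) and without the 3 arrays that stood apart (0.0696), and CIPK17 passed in each (0.0402, 0.0138 and 0.0155). The NADPH oxidase gene measured, rbohB, of a family whose proteins bind calcium and produce reactive oxygen, had a difference of 0.18 and did not pass. Over all probe sets 4.95% were higher and 3.36% lower. Both shares of the CIPK list, the falling share of CBL genes and the rising share of channels and carriers were larger than these. No CBL gene rose and no channel or carrier fell. The lists are small and their shares were not tested.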

How the data were processed

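The authors deposited log2 levels per probe set in 1 column per array; the submitters' processing notes name RMA. The version is not given in the sources. Removing 123 AFFX and 64 reporter controls from the 57381 probe sets left 57194. In the array annotation 22436 of these had 1 gene, 95 several and 34663 none listed. Names came from the RefSeq table of assembly ASM3414082v1. Because the array's genome build is not named, no coordinates are printed, and no sequences were read.

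Values were fitted with limma 3.58.1 (R 4.3.3) with 1 mean for each of 8 groups over the 23 arrays together, two-sided tests and Benjamini-Hochberg adjustment over all probe sets. An adjusted p under 0.05 passed. Other calcium genes and tissue markers were matched by name, and none matched the calmodulin-binding factors. Every member could be named, with array values for those passing a test and for calmodulins. The array values of CML15, CML16, CML31 and CCAMK's differences were chosen after their values were seen. The members and lists were chosen with earlier results of these data known.

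Pairing of same-numbered control and salt arrays was judged from correlated deviations from group means. Every pair exceeded 0.1 in FL478 (0.421, 0.197 and 0.287) and IR63731 (0.142, 0.296 and 0.252), but not in IR29 (-0.179 and 0.119) or Pokkali (-0.066, -0.016 and 0.316). Whether a shift by replicate number shared across genotypes gave these correlations was not tested. The code was tested on simulated data. Plots were made with matplotlib 3.10.9 in Python 3.11.15.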

Additional observations from a re-analysis of the deposited data

How the results depend on the processing

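In the mean of 4 genotypes, 4 members were higher, against 2 without the 3 arrays between genotypes (CAM1 and CML20) and 1 with the 3 prime covariate (CML20). Leaving out 1 array gave 1 to 4 higher and 1 to 2 lower. With the replicate number as a block, the count of members passing went from 0 to 1 in FL478 (CPK7) and from 0 to 2 in Pokkali (CML32 and CML8), from 1 to 5 across control roots and from 5 to 8 across salt roots. In the mean of 4 genotypes the block kept all 5 members and added CML8 (0.26, adjusted p = 0.0106). Array weights gave 2 in IR63731 (CML20 and CPK21), 1 in Pokkali (CML32) and 4 across control roots. The filter at the median probe set, which left 38 members, gave 1 in FL478. Across control roots 3 passed with only the arrays compared, 2 without the 3 arrays, 3 with the 3 prime covariate and 2 with the clock covariate. Across salt roots 2 passed with only the arrays compared and 3 each without the 3 arrays and with the 3 prime covariate. Leaving out 1 array gave 0 to 1 in FL478, IR63731 and Pokkali, 0 in IR29 and in the test of salt effects between genotypes, 1 to 3 across control roots and 1 to 6 across salt roots. Other probe sets turned the estimate for CML10 (0.0937 against -0.12), CPK6 (-0.0462 against 0.02) and CPK13 (-0.10 against 0.09), none passing. The cause of these changes was not tested. CML20 and CPK7 passed for salt in every setting run. Groups of 2 or 3 arrays limit what single genotypes can show, and the 8 members at or below the median probe set have little signal over background.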
